A study of Macaca mulatta with 16 samples.

Results

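The let-7 family was followed through 11 of the 339 mature miRNAs measured in the fetal rhesus monkey retina, chosen by name: every entry that begins with let-7, and miR-98, which belongs to the same family. Of these, 9 were guides of the 5p arm, which load into Argonaute and silence messages, and 2 were passenger arms (let-7a-3p and let-7e-3p), the strands that are usually discarded. let-7d and miR-98 are listed without an arm and were counted with the guides. All 11 passed the filter on low values. The libraries came from punches of 2.5 mm taken at 50 days of gestation from normal, untreated rhesus monkey (Macaca mulatta) fetuses, 3 from the temporal retina, which holds the presumptive fovea, and 3 from the matching nasal retina. The eye is small at this age, so a punch also sampled retina outside the future fovea, and each region is a mixture of retinal cells. mRNA of the same regions, from normal fetuses as well, was deposited as the authors' mean of 3 samples per region at 50 days and as 1 library per region at 90 and at 150 days. The labels number the libraries 1 to 3 in each region without saying which animal each came from, so the p-values given here measure the spread between these samples. The paper's methods describe cutting both punches from an opened retina, and using the RNA-seq samples for miRNA as well. Temporal and nasal libraries may thus share an eye, and the main tests took them as unpaired.

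let-7 is a conserved heterochronic miRNA: its guides share a seed, the stretch near the 5′ end that pairs with targets, and they accumulate as neural progenitors leave the early, proliferative state. The RNA-binding proteins LIN28A and LIN28B block the maturation of let-7 precursors, and let-7 in turn silences LIN28B, HMGA2 and the IGF2BP genes. In the mouse retina, let-7 takes part in the change of progenitors from early to late fates. The guides differ from one another at a few bases only, so a read of one can be assigned to another, and the authors' handling of such reads is not stated in the sources read here.

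In the RefSeq annotation of the rhesus genome (T2T-MMU8v2.0), the family is encoded by 12 genes, 3 of them for let-7a and 2 for let-7f, so the counts of those guides are sums over loci. let-7a-1, let-7f-1 and let-7d neighbour one another, as do let-7a-3 and let-7b. let-7c neighbours miR-99a, let-7a-2 neighbours miR-100, and let-7e neighbours miR-99b and miR-125a, each within 10 kb. miR-98 and let-7f-2 lie inside HUWE1, a ubiquitin ligase gene, and let-7g lies inside WDR82, a gene of a histone methyltransferase complex. let-7g and let-7i had no other miRNA gene within 10 kb.

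Values were deposited as TPM, a level relative to the reads of the library, rounded to whole numbers. The 339 miRNAs summed to 309924, 353553 and 339994 TPM in temporal libraries 1, 2 and 3 and to 178383, 358430 and 238494 TPM in nasal libraries 1, 2 and 3, so the total differed more between nasal libraries than between regions. Read depth per library is unknown from these values. Nasal library 2 stood apart in miRNAs of vessels: miR-126, an endothelial miRNA, had 551 TPM there and 21 to 42 TPM in the other 5 libraries, and miR-143-3p, a miRNA of smooth muscle, had 288 TPM there and 2 to 5 TPM elsewhere. The 2 of 3 vessel miRNAs in the table summed to 26 to 47 TPM in the temporal and 27 to 839 TPM in the nasal libraries. The let-7 calls are given with and without that library. The 6 miRNAs listed for retina and neurons were summed as deposited, before rescaling. The sums were 31851 to 34111 TPM in the temporal and 13641 to 24102 TPM in the nasal libraries. Most of this was miR-9-5p (21179 to 25945 TPM temporal and 7787 to 14520 TPM nasal). Of the 6, miR-96 and miR-182, miRNAs of photoreceptors, were called higher on the temporal side (limma on rescaled values, adjusted p = 0.0363 and 0.0251). Both were also called without nasal library 2. miR-9-5p (0.56 on the log2 scale, limma's adjusted p = 0.0720), miR-183-5p (1.14, 0.0890), miR-124a-3p (0.29, 0.563) and miR-204-5p (-0.48, 0.0687) were not called. By mRNA at this age, all 7 progenitor markers reached 1 CPM, with authors' means that summed to 951 CPM temporal and 1007 CPM nasal. So did 4 of 4 photoreceptor markers, with sums of 241 and 131 CPM. Of 5 markers of retinal ganglion cells 4 did, with sums of 369 and 438 CPM. Of 3 lens markers 1 did, with sums of 36.6 and 31.8 CPM, and of 4 microglia markers 2 did, with 3.90 and 6.78 CPM. Of 6 markers of the pigment epithelium 4 reached 1 CPM, with sums of 23.7 and 38.3 CPM. Of 4 blood markers 1 did, with sums of 0.320 and 6.23 CPM. miR-486-5p, a miRNA of red blood cells, was called lower on the temporal side (-1.01 on the log2 scale, limma's adjusted p = 0.0220, and -0.85 with 0.0427 without nasal library 2). Of 5 vessel mRNAs 4 reached 1 CPM, with sums of 929 and 700 CPM that rest on KDR (854 and 582 CPM), while COL3A1 had 0 and 13.6, PECAM1 0.532 and 2.01, CDH5 0 and 1.24 and PDGFRB 74.5 and 100.4 CPM, temporal and nasal. The part of these cells in the let-7 differences was not tested.

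The guides were among the most abundant miRNAs of this tissue, spread over a wide range. let-7i-5p had the highest mean of all 339 miRNAs, with 26466, 25801 and 37439 TPM in temporal libraries 1 to 3 and 18416, 38393 and 23404 TPM in nasal libraries 1 to 3. Its rank was 1 in temporal library 3 and in all 3 nasal libraries, 2 in temporal library 1 and 4 in temporal library 2. By mean, let-7g-5p ranked 8, let-7f-5p 10, let-7a-5p 14, let-7e-5p 31, let-7c-5p 45, let-7d 66, miR-98 86 and let-7b-5p 142. The passenger arms let-7e-3p and let-7a-3p ranked 236 and 250. In the nasal libraries the TPM ranges of let-7g-5p, let-7f-5p and let-7a-5p overlapped, although let-7f-5p was above let-7g-5p within each of the 3. In the temporal libraries let-7g-5p, at 11583 to 12809 TPM, lay above let-7f-5p, at 9029 to 10061 TPM, which lay above let-7a-5p, at 4072 to 5531 TPM. Over all 6 libraries let-7i-5p lay above every other guide, and let-7e-5p (1148 to 2841 TPM), let-7c-5p (500 to 1433 TPM) and let-7d (305 to 649 TPM) each overlapped the next in this order. miR-98 (190 to 237 TPM) lay below let-7d and above let-7b-5p (43 to 90 TPM) without overlap. Such an order between miRNAs also carries any unequal ligation of adaptors, which was not measured.

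Because the totals differed, libraries were rescaled by the median of ratios before regions were compared, which set the median log2 difference over the 283 miRNAs tested at 0.01. On that scale 4 of the 9 guides were lower on the temporal side (let-7c-5p, let-7a-5p, let-7d and let-7e-5p), none was called higher, and neither passenger arm differed (limma, adjusted p of 0.05 over all 283 miRNAs). The background was 14.8% of all miRNAs called lower and 13.4% called higher on the temporal side. The groups of 3 libraries did not overlap for 5 guides lower on the temporal side and for 1 higher, let-7g-5p, against 23.0% and 21.9% of all miRNAs. For let-7b-5p that gap was 68.5 against 69.1 rescaled TPM, less than the rounding to whole TPM can move. In bulk tissue, fewer cells of a type and less of a miRNA per cell cannot be told apart.

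**Figure D1:**
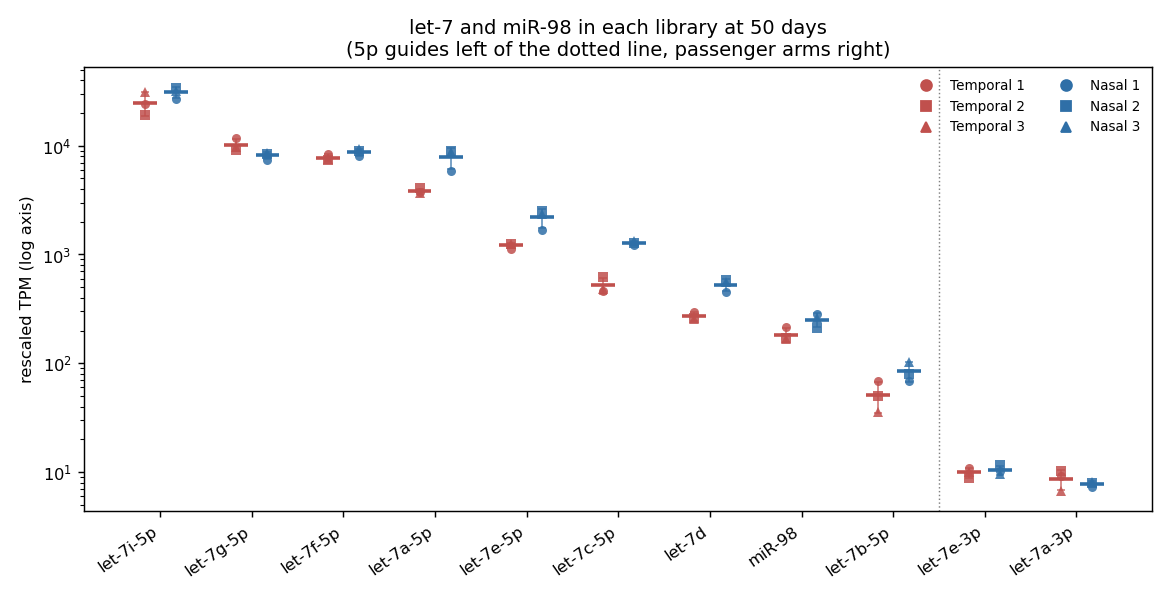
Rescaled TPM (log axis) of the 9 guides and 2 passenger arms in the 6 libraries at 50 days, with each library as a symbol, the region's mean as a bar and the SD as a whisker (n = 3). The temporal libraries lie below the nasal ones without overlap for let-7a-5p, let-7e-5p, let-7c-5p, let-7d and, by less than the rounding, let-7b-5p, and above them for let-7g-5p.

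let-7c-5p, which comes from a locus shared with miR-99a, had the widest gap. Its rescaled values were 457, 624 and 481 TPM in temporal libraries 1 to 3 and 1216, 1277 and 1325 TPM in nasal libraries 1 to 3. Every temporal library lay below every nasal one, and the nasal libraries were close together. The level was 2.46-fold higher on the nasal side, a log2 difference of -1.30 ± 0.16 (SE, n = 3 per region), with limma's adjusted p = 0.00168. It was the fifth smallest p of all 283 miRNAs. Without nasal library 2 the difference was -1.31 (limma's adjusted p = 0.00286).

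let-7a-5p, the member identical between worm and vertebrates, had 3722, 4057 and 3685 TPM after rescaling in the temporal libraries and 5860, 8966 and 8767 TPM in the nasal libraries. Nasal library 1 was the lowest of its group and still above all temporal libraries. The log2 difference was -1.02 ± 0.19 (SE, n = 3), a 2.02-fold higher nasal level, with limma's adjusted p = 0.00705. let-7d had 299, 258 and 256 TPM temporal and 449, 578 and 562 TPM nasal, again without overlap. Its log2 difference was -0.96 ± 0.16 (SE, n = 3; limma's adjusted p = 0.00507).

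let-7e-5p, encoded beside miR-99b and miR-125a, had 1127, 1258 and 1246 TPM temporal and 1688, 2531 and 2369 TPM nasal after rescaling. The groups did not overlap, and the log2 difference was -0.84 ± 0.18 (SE, n = 3; limma's adjusted p = 0.0113). This call was lost without temporal library 1 (-0.76, adjusted p = 0.0595) and without nasal library 3 (-0.78, adjusted p = 0.0652). Without nasal library 2, let-7a-5p, let-7d and let-7e-5p stood at -0.92, -0.90 and -0.73 and passed limma's test, with adjusted p-values of 0.0183, 0.0109 and 0.0374. Without temporal library 2, let-7c-5p, let-7a-5p, let-7d and let-7e-5p stood at -1.42, -1.04, -0.90 and -0.85. Their adjusted p-values in limma were then 0.00243, 0.0186, 0.0186 and 0.0326.

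let-7g-5p was the only guide whose libraries were all higher on the temporal side. Its deposited values were 12809, 12564 and 11583 TPM in the temporal and 5024, 9481 and 6296 TPM in the nasal libraries, and its rescaled values were 11707, 9216 and 9663 TPM against 7388, 8448 and 8591 TPM. No library of one region reached into the range of the other on either scale. The log2 difference after rescaling was 0.32 ± 0.16 (SE, n = 3; 95% interval -0.04 to 0.68), and limma's adjusted p of 0.160 missed the threshold. Without nasal library 2 it stood at 0.34 (limma's adjusted p = 0.311). let-7g-5p did pass with every library set to the same sum over all miRNAs (0.45, limma's adjusted p = 0.0383), where 16.6% of all miRNAs were called higher and 12.0% lower on the temporal side. That call was lost without nasal library 2 (0.43, adjusted p = 0.134).

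The other guides were not called after rescaling by the median of ratios. let-7b-5p, the rarest guide, had 75, 68 and 43 TPM as deposited in the temporal and 47, 90 and 76 TPM in the nasal libraries, and a log2 difference after rescaling of -0.73 ± 0.27 (SE, n = 3; limma's adjusted p = 0.0761). For miR-98 the deposited values were 234, 231 and 201 TPM temporal and 195, 237 and 190 TPM nasal. These groups overlapped, and the rescaled log2 difference was -0.45 (95% interval -0.87 to -0.04; limma's adjusted p = 0.0906). let-7f-5p had 9188, 10061 and 9029 TPM temporal and 5477, 9959 and 6850 TPM nasal as deposited. Its rescaled log2 difference was -0.17, with an interval of -0.50 to 0.16. let-7i-5p overlapped as well, at -0.35 with an interval of -0.85 to 0.15. The differences of let-7b-5p and let-7i-5p leaned on single libraries. Without nasal library 1, let-7b-5p passed limma's test (-0.86, adjusted p = 0.0345), and without temporal library 3 it stood at -0.49 (0.228). let-7i-5p was at -0.15 without temporal library 2 and at -0.52 without temporal library 3, neither called.

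The size and calls of these differences, and for miR-98, let-7i-5p and let-7f-5p the direction, depended on how libraries were put on one scale. On the values as deposited, the median log2 difference of the 283 miRNAs was 0.52, with 3 miRNAs called lower and 77 called higher on the temporal side where the rescaled values gave 42 and 38. On that scale 0 of the 9 guides passed limma's adjusted p of 0.05 in either direction, against a background of 1.06% called lower and 27.2% called higher. let-7c-5p stood at -0.74 (adjusted p = 0.0908), let-7a-5p at -0.46 (0.339), let-7d at -0.40 (0.322) and let-7e-5p at -0.28 (0.544), all below the median of 0.52. let-7g-5p was at 0.88 (0.0540), above it. The only guide whose deposited values did not overlap between regions was let-7g-5p, where 41.7% of all miRNAs were higher and 3.89% lower on the temporal side without overlap. miR-98, let-7i-5p and let-7f-5p changed sign, to 0.10, 0.21 and 0.39.

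**Figure D2:**
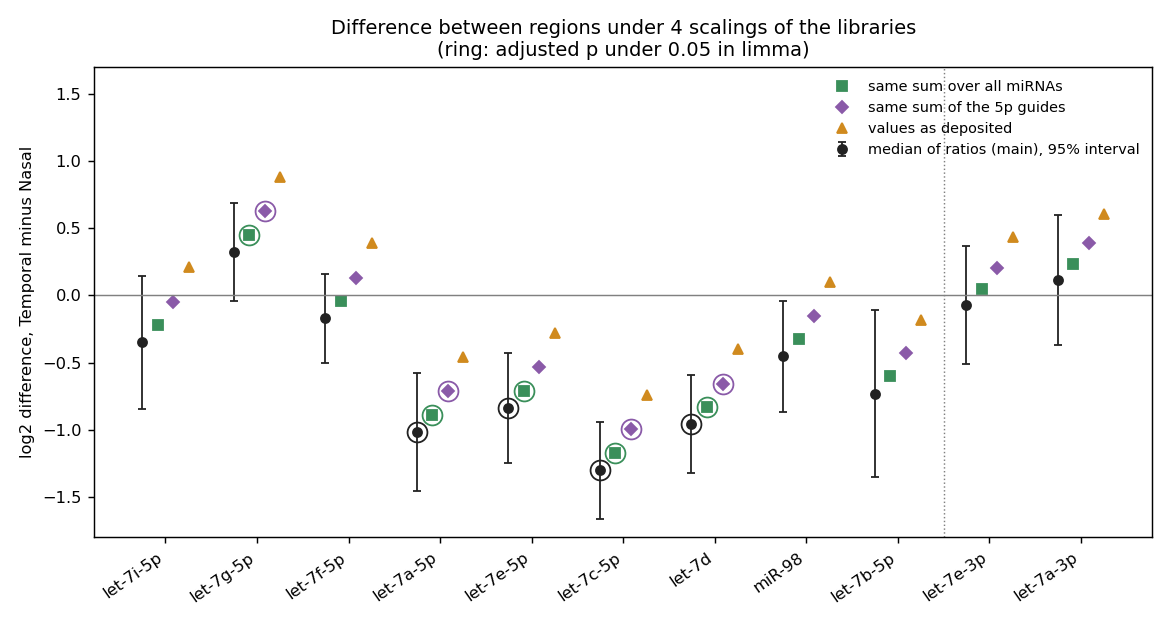
Log2 difference, temporal minus nasal (n = 3 per region), of each member under 4 scalings of the libraries, with the 95% interval for the median of ratios and a ring where limma's adjusted p was under 0.05. let-7c-5p, let-7a-5p, let-7d and let-7e-5p lie below 0 under each scaling and carry no ring for the values as deposited; let-7g-5p lies above 0 under each.

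The direction of the summed guides also depended on the scale. As deposited they came to 54904, 57174 and 65090 TPM in the temporal and 35424, 73145 and 46360 TPM in the nasal libraries. The mean was 59056 ± 5347 TPM temporal and 51643 ± 19408 TPM nasal (SD, n = 3), and the nasal range enclosed the temporal one. The log2 difference was 0.26 (exact permutation test, two-sided, p = 0.5; 3 against 3 libraries cannot go below 0.1), and it turned to -0.30 after rescaling by the median of ratios (exact p = 0.2). As deposited it was 0.02 without nasal library 1 and 0.54 without nasal library 2, when the groups no longer overlapped. As a share of the summed TPM of all miRNAs, the guides made up 17.7%, 16.2% and 19.1% of the temporal and 19.9%, 20.4% and 19.4% of the nasal libraries. These shares did not overlap, with or without nasal library 2, and the exact p was 0.1, the smallest this design allows.

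The composition of the family within a library does not depend on scaling. The shares of a library add up to the whole, so a larger share of any guide lowers the others together. The shares are thus not separate results. let-7i-5p supplied the largest part of the guides' sum, with overlapping shares of 50.3% ± 6.45 temporal and 51.7% ± 1.04 nasal (SD, n = 3). let-7g-5p supplied 23.3%, 22.0% and 17.8% in temporal libraries 1 to 3 and 14.2%, 12.96% and 13.6% in nasal libraries 1 to 3. Its lowest temporal share was above its highest nasal share. let-7a-5p supplied 7.42%, 9.67% and 6.79% in the temporal and 11.2%, 13.8% and 13.9% in the nasal libraries.

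The shares of the less abundant guides separated in the direction of let-7a-5p. let-7e-5p held 2.51% ± 0.422 temporal and 3.62% ± 0.338 nasal, let-7c-5p 1.10% ± 0.341 and 2.13% ± 0.190, and let-7d 0.561% ± 0.0780 and 0.879% ± 0.0156 (SD, n = 3). Those of let-7f-5p, miR-98 and let-7b-5p overlapped between regions. In all, 4 shares were lower and 1 was higher on the temporal side without overlap. Taken against the same sum, 13.1% of all miRNAs lay lower and 27.2% higher without overlap. Each of the 5 had an exact permutation p of 0.1 (two-sided, the smallest possible) and an adjusted p of 0.18 over the 9 guides, so none passed. With every library scaled to the same sum of guides, limma called let-7c-5p (-0.997, adjusted p = 0.0129), let-7a-5p (-0.71, 0.0239) and let-7d (-0.66, 0.0299) lower and let-7g-5p (0.62, 0.0239) higher on the temporal side, with 6.36% and 19.8% of all miRNAs called lower and higher. let-7e-5p, at -0.54 with an adjusted p of 0.0561, missed the threshold there. The calls on this scale are tied through the guides' sum, as the shares are. Without nasal library 2 only let-7c-5p of the 9 guides was called on this scale (-1.06, adjusted p = 0.0126), while let-7a-5p (-0.67, 0.0654), let-7d (-0.65, 0.0959) and let-7g-5p (0.59, 0.0849) were not.

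**Figure D3:**
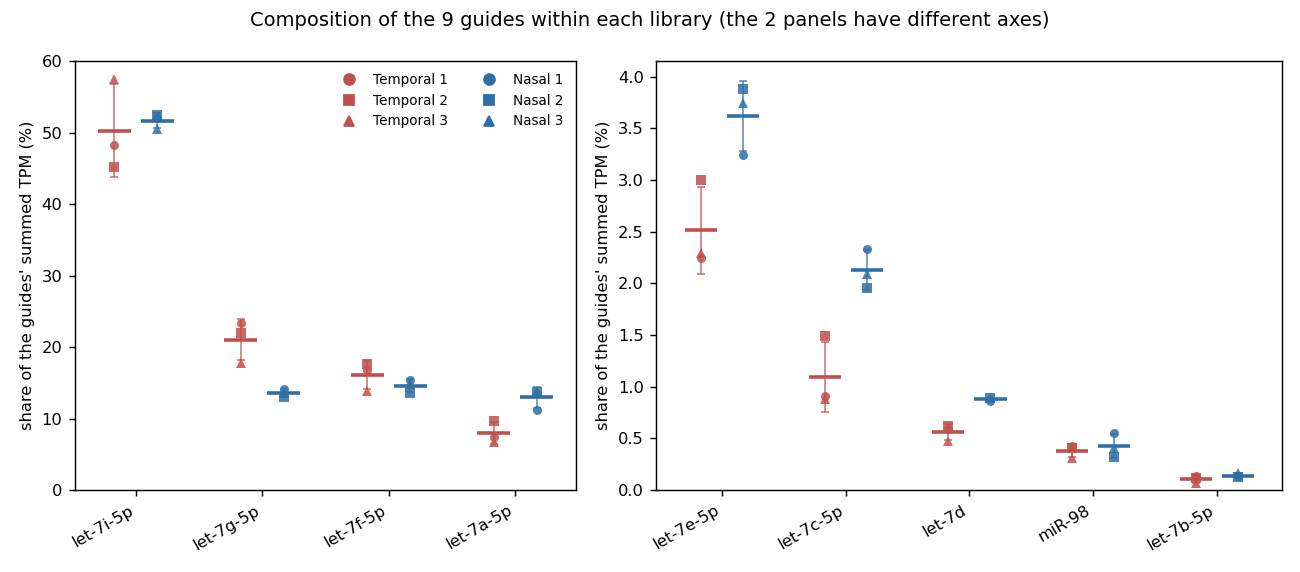
Share of each guide in the summed TPM of the 9 guides within each library (percent; left, the 4 most abundant guides, right, the other 5, on a smaller axis), with the region's mean and SD (n = 3). let-7g-5p made up 17.8% to 23.3% in the temporal and 12.96% to 14.2% in the nasal libraries, while let-7a-5p, let-7e-5p, let-7c-5p and let-7d had smaller temporal shares.

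Ratios between guides within a library are free of scaling as well. The ratio of let-7c-5p to let-7g-5p had the largest difference of the 36 pairs of guides, with a geometric mean of 0.0510 in the temporal and 0.157 in the nasal libraries. For let-7a-5p to let-7g-5p these ratios were 0.377 and 0.951. let-7g-5p was above let-7f-5p in all 3 temporal libraries and below it in all 3 nasal libraries. With let-7g-5p as the numerator, its ratios to the other 8 guides were all higher on the temporal side without overlap. In all, 20 of 36 pairs did not overlap, 55.6%, beside 43.3% of the 39903 pairs among all 283 miRNAs, so the count of pairs was near the background. No pair had an adjusted p below 0.18 in the exact permutation test over 36 pairs, since each p can reach only 0.1.

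Correlations were taken over the 6 libraries on the log2 scale of the rescaled values. let-7c-5p, let-7a-5p, let-7d and let-7e-5p had Pearson correlations with one another from 0.92 to 0.99. Those of let-7g-5p with the same 4 guides ran from -0.83 to -0.61. These are descriptions over 6 libraries that share a region effect and a scaling. The non-members most like let-7c-5p were miR-128b-3p (0.99), miR-485-5p (0.99) and miR-505-5p (0.98). For let-7a-5p they were miR-6529-3p, miR-128a-3p and miR-423-5p, each at 0.99, and for let-7g-5p miR-20b-5p (0.97), miR-9-5p (0.96) and miR-339-5p (0.96). For let-7i-5p the correlations were lower, with miR-151-3p at 0.95 and miR-218-5p and miR-370-3p at 0.94.

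Neither passenger arm was called between regions. let-7a-3p had 10, 14 and 8 TPM in the temporal and 5, 9 and 6 TPM in the nasal libraries, and its rescaled log2 difference was 0.11 (95% interval -0.37 to 0.59). let-7e-3p had 12 TPM in each temporal library and 7, 13 and 7 TPM in the nasal libraries, at -0.07 (95% interval -0.51 to 0.37). Both are low enough that rounding to whole TPM is a visible part of the value. The guide was also set against its passenger arm within each library, which needs no scaling, although the 1 TPM added to both arms weighs on the low passenger values. For let-7a the guide sums over 3 loci, and which of them the let-7a-3p entry covers was not checked. Its ratio is thus not that of 1 hairpin, and a change at any of these loci would move it. The log2 of let-7a-5p over let-7a-3p was 8.53, 8.53 and 8.94 temporal and 9.38, 9.97 and 9.84 nasal, so the temporal libraries were all lower.

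For let-7a this log2 arm ratio differed by -1.06 ± 0.22 (SE, n = 3; limma's adjusted p = 0.000840 over 62 hairpins with both arms). For let-7e the log2 arm ratios were 6.57, 7.04 and 6.85 temporal and 7.17, 7.67 and 7.76 nasal, a difference of -0.71 ± 0.22 (SE, n = 3; limma's adjusted p = 0.0144). Over the 62 hairpins, 19.4% were called with a lower ratio on the temporal side and 46.8% in either direction, so a regional difference in this ratio was common. The ratios of let-7a and let-7e use the guide values already called lower, beside passenger arms that were not called. They are thus not separate results. Without nasal library 2 both stayed below the threshold, at -0.94 (adjusted p = 0.00163) and -0.64 (0.0347). The let-7e call was lost without temporal library 1 (-0.59, adjusted p = 0.0913) and without nasal library 3 (-0.60, adjusted p = 0.102).

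**Figure D4:**
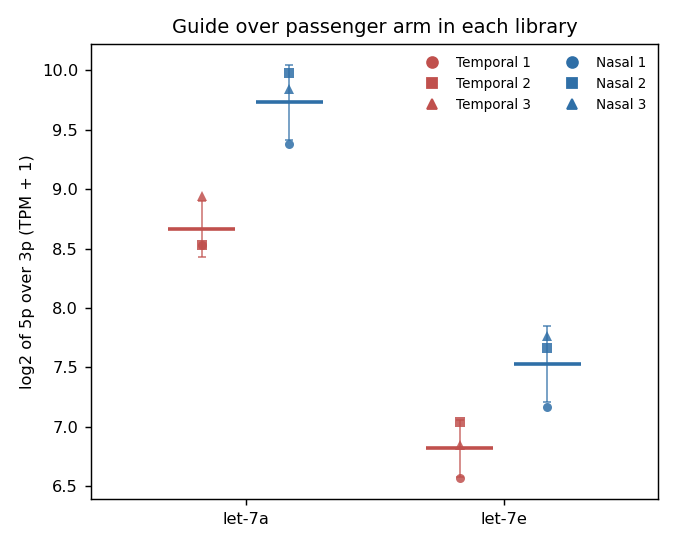
Log2 ratio of the 5p guide to the 3p passenger arm (TPM + 1) for let-7a and let-7e in each of the 6 libraries, with the region's mean and SD (n = 3). For both ratios, the 3 temporal libraries lie below the 3 nasal ones. The let-7a guide sums over 3 loci, so its ratio is not that of 1 hairpin.

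Of 5 miRNAs from let-7 clusters, 3 were called lower on the temporal side after rescaling and 0 higher, beside 14.8% and 13.4% of all miRNAs. miR-99b-5p and miR-125a-5p, the neighbours of let-7e, had rescaled log2 differences of -0.60 and -0.55 (limma's adjusted p = 0.0279 and 0.0347). miR-100-5p, the neighbour of let-7a-2, had 99, 555 and 139 TPM temporal and 379, 602 and 336 TPM nasal, with a log2 difference of -1.66 ± 0.49 (SE, n = 3; limma's adjusted p = 0.0370). Its groups overlapped as deposited through temporal library 2. Of these 3, miR-100-5p alone stayed called without nasal library 2 (-1.64, adjusted p = 0.0380), and miR-99b-5p (-0.53, 0.102) and miR-125a-5p (-0.54, 0.101) were not. miR-99a-5p, beside let-7c, was at -0.45 (limma's adjusted p = 0.105) and miR-125b-5p at -0.12 (0.670).

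The mRNA table gives, at 50 days, only the authors' mean of 3 samples per region, so genes of the let-7 pathway could be described there but not tested. LIN28A, the blocker of let-7 maturation in stem cells, was listed at 0 in every column. Its paralog LIN28B had authors' means of 3.07 CPM temporal and 3.00 CPM nasal. DICER1, the RNase that cuts the let-7 precursor, stood at 558 and 542 CPM, and TUT4, a terminal uridylyltransferase recruited by LIN28A to let-7 precursors, at 815 and 745 CPM. Of the 16 processing genes listed, all were in the table, 15 reached 1 CPM at 50 days, and their median log2 ratio of temporal to nasal CPM + 1 was 0.04, beside -0.02 over all genes. With 14 of them at 5 CPM or more, 0 were 2-fold different, beside 0.197% of all genes 2-fold higher in the temporal and 0.861% in the nasal retina.

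Messages known as let-7 targets were read in the same way. Of 27 targets listed, 26 could be read and 25 reached 1 CPM, 14 of them higher and 11 lower on the temporal side, with a median log2 ratio of 0.01. PRTG, a membrane receptor of early neural progenitors and a let-7 target in the mouse retina, had authors' means of 73.7 and 73.5 CPM. IGF2BP1, an RNA-binding protein of fetal tissues, had 168 CPM temporal and 169 CPM nasal, and the chromatin protein HMGA2 2.01 and 1.59 CPM. TRIM71, itself a heterochronic gene, had 8.10 CPM temporal and 15.6 CPM nasal. The cyclin CCND1 had 260 CPM temporal and 304 CPM nasal. None of the 20 targets at 5 CPM or more was 2-fold different in either direction.

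No miRNA was measured at 90 or 150 days, where mRNA rests on 1 library per region. LIN28B had 0.809 and 0.988 CPM at 90 days, from 16 and 21 reads, and 1.69 and 2.44 CPM at 150 days, from 31 and 49 reads, in the temporal and the nasal library. Its ratio of temporal to nasal was 0.819 at 90 days (95% exact Clopper-Pearson interval 0.400 to 1.65) and 0.690 at 150 days (0.426 to 1.10), intervals that cover counting error only. IGF2BP1 went from 98.1 against 120 CPM at 90 days to 10.9 against 7.83 CPM at 150 days, and IGF2BP3 from 95.4 against 108 CPM to 30.1 against 36.3 CPM, temporal against nasal. Over both regions, 14 of 25 targets of at least 1 CPM peaked at 50 days, while 7 peaked at 90 and 4 at 150 days, beside 41.1%, 22.6% and 36.2% of all genes. For processing genes these numbers were 13, 1 and 1 of 15. The 50-day values are authors' means on a scale near CPM, so ranking them against CPM of single libraries can carry a difference of scale. The part of such a difference was not tested. The series' design names paired reads at 90 and 150 days, whereas the methods name single-end reads without an age, and if layout differed, its part cannot be told apart from that of age.

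Between regions, the targets' median log2 ratio was -0.17 at 90 days and 0.01 at 150 days, beside 0.02 and -0.04 over all genes. That of the processing genes was -0.15 at 90 days, with 12 of 14 below 0, and -0.09 at 150 days, with 11 of 15 below 0. Of the 22 targets at 5 CPM or more at 90 days 0 were 2-fold different, beside 0.792% of all genes 2-fold higher in the temporal and 0.581% in the nasal library. At 150 days 1 of 20 was, against 1.61% and 0.920%. This was CCND1, at 38.7 CPM temporal and 98.8 CPM nasal. edgeR's quasi-likelihood test on the reads recovered at 90 and 150 days, with age as a term, called 0 of 15102 genes (0.00%), and 1378 of them had a p under 0.05 before adjustment. It took the libraries of both ages as replicates of a region, so it tested only a difference common to both ages. So few libraries give it little power, and the count of 0 does not show that the regions were alike. None of these differences within an age has a replicate check.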

How the data were processed

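Small RNA was measured in 6 libraries at 50 days, 3 per region, and mRNA at 50, 90 and 150 days. The authors assigned miRNA reads by miRBase release 20. Their deposited TPM values are whole numbers after rounding and were treated as a score, not as counts. The methods describe a pipeline of Bowtie2, Tophat and Cufflinks without saying whether miRNA reads went through it, and the submitters' processing notes name edgeR. The deposited fold changes and p-values of the authors' own comparison were not used. For mRNA, the deposited values at 90 and 150 days are CPM, and those at 50 days a mean of 3 samples by the authors, a signal near the CPM scale; the paper names Ensembl release 75. The steps between CPM values gave back whole reads for 100% of values, to within 0.01 of a read.

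Members were all miRNAs named let-7 or miR-98, and all are named in the text. Members, gene lists and the rule for similar miRNAs (the 3 highest Pearson correlations with each of let-7c-5p, let-7a-5p, let-7g-5p and let-7i-5p) were chosen with earlier results of these data known. Values were divided by median-of-ratios factors and tested as log2(value + 1) with limma 3.58.1 (trend) in R 4.3.3, over 283 miRNAs of at least 5 mean TPM. Single values had exact two-sided permutation tests. Fits were tested on simulated data. Recovered reads were tested with edgeR 4.0.16, an alternative added after the data were seen, as were fits of other miRNAs and of 2 scales without nasal library 2. Deviations of same-numbered libraries correlated at 0.50, 0.16 and 0.12 for replicates 1, 2 and 3, each over 0.1, so the numbers were taken to pair the libraries in a fit with a replicate block; the labels state no pairing. Temporal 3 and nasal 2 correlated at 0.218, above 2 of those values, and consecutive sample codes would join other libraries (-0.191, -0.152 and 0.218), so what the block removes is uncertain. CCND2 was left out, since its identifier has another symbol in the gene name table. The listed host genes of let-7b, let-7c and let-7a-2 (MIRLET7BHG, MIR99AHG and MIR100HG) were not found by symbol among the mRNA values. Other annotated genes that overlap members, among them SPACA6 over let-7e, were not analysed here. All columns with sample values could be assigned, and 0 pairs of libraries were identical. Other tools were Python 3.11.15 with SciPy 1.17.1 for exact tests, pandas 2.3.3 and Matplotlib 3.10.9.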

Additional observations from a re-analysis of the deposited data

Results flagged for a closer look

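The let-7 results at 50 days have groups of 3 libraries, too few for a check of single libraries that lie far out. Among let-7 targets and processing genes, 8 had single-library ratios of temporal to nasal mRNA on opposite sides of 1 at 90 and 150 days, with both exact intervals clear of 1; whether the ages differ was not tested. All 8 are among 33 listed genes of at least 5 CPM at both ages (24.2%), where 1493 of 11418 genes (13.1%) met the same criterion. These intervals cover counting error of single libraries only. DICER1 had 0.892 at 90 days and 1.41 at 150 days. For IGF2BP1 the ratios were 0.815 and 1.40, for IGF2BP2 0.837 and 1.50, for the phosphatase gene CDC25A 0.822 and 1.25, and for the insulin receptor INSR 0.887 and 1.20. The reverse order was seen for the proto-oncogene MYCN, with 1.18 and 0.764, for the DNA-binding factor ARID3B, with 1.20 and 0.789, and for the ubiquitin-conjugating enzyme CDC34, with 1.39 and 0.807.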

How the results depend on the processing

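The count of 4 guides lower on the temporal side held, by the same 4 guides, with the same sum over all miRNAs or the same upper quartile as the scale, pseudocounts of 0.5 and 5, both filters, no trend and the replicate block (4 guides; 90 miRNAs called in all against 80). It was 0 on the values as deposited, 3 with the guides' sum as the scale, 6 with array weights (let-7b-5p and miR-98 added) and 3 to 5 with a library left out. Without nasal library 2 it was 4 with the same sum and 1 with the guides' sum, alternatives chosen after seeing the data. Guides called higher numbered 1 (let-7g-5p) with the same sum over all miRNAs and with the guides' sum, and 0 in the other settings, including both sums without nasal library 2. All miRNAs called lower and higher numbered 34 and 47 with the same sum, 18 and 56 with the guides' sum, and 40 and 24 with the upper quartile. With array weights these numbers were 61 and 51, beside 42 and 38 in the main run. They were 22 to 58 and 12 to 49 with a library left out. Without nasal library 2 they were 20 and 27 with the same sum and 16 and 38 with the guides' sum. let-7e-3p reversed to 0.43 on the values as deposited, 0.045 with the same sum, 0.20 with the guides' sum 0.023 without temporal library 2 (-0.139 to 0.023 with a library left out) and 0.073 with the same sum without nasal library 2; let-7f-5p reversed to 0.39 as deposited 0.13 with the guides' sum and 0.081 with that sum without nasal library 2; miR-98 and let-7i-5p reversed to 0.10 and 0.21 as deposited. The summed guides' difference of 0.26 reversed to -0.30, -0.17 and -0.34 with the median of ratios, the same sum and the upper quartile, and ran from 0.02 to 0.54 with a library left out. The let-7a arm difference stayed called in each alternative run, from -1.24 to -0.94 with a library left out; that of let-7e ran from -0.89 to -0.59 with a library left out and lost its call without temporal library 1 or nasal library 3. With 2 libraries on 1 side, 21 to 24 of 36 guide pairs did not overlap, 58.3% to 66.7%, beside 46.7% to 63.4% of all pairs. With the replicate block both arm differences and the 4 guides kept their calls. Scaling moves all miRNAs of a library alike; the cause of the other shifts was not tested. Precision is limited by 3 libraries per region and, for the passenger arms, by rounding.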

Other observations

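HUWE1 and WDR82, the host genes of members that were read here, were abundant at 50 days. HUWE1, host of miR-98 and let-7f-2, had authors' means of 1392 CPM temporal and 1403 CPM nasal. WDR82, host of let-7g, had authors' means of 263 and 237 CPM. At 150 days, with 1 library per region, HUWE1 had 402 and 384 CPM and WDR82 290 and 306 CPM, temporal and nasal.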
